A study of Xenopus laevis with 12 samples.

Results

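The mitochondrial genome of *Xenopus laevis*, the African clawed frog, encodes core proteins of the respiratory chain, and 10 of these genes are described here: *ND1*, *ND2*, *ND4*, *ND5*, *ND6*, *CYTB*, *COX1*, *COX2*, *COX3* and *ATP6*. They were chosen by name alone, as the genes of the deposited table whose symbol is one of these in capital letters, and all 10 were found among 44478 genes. That NB2 has the highest level was known when they were chosen. Polyadenylated RNA was sequenced from 12 pools of whole bots, living constructs built from embryonic ectoderm, with 4 libraries of each kind. Neurobots (NB1 to NB4) were animal caps, the ectoderm of a late blastula, that closed around a clump of ectodermal cells left apart for hours beforehand, which turns such cells neural. Sham neurobots (NN1 to NN4) closed around a clump whose cells had been rejoined soon after separation, and biobots (XB1 to XB4) were caps that closed around nothing. The labels name no mutation, transgene or drug for any group. Each library came from several bots pooled together, so that a p-value measures the spread between pools and not between single bots. NB1 and XB1 were submitted for sequencing ahead of the other pools, with more bots in each, and no sham pool was among that first submission. The neurobot pools also held more bots than the sham pools and than the later biobot pools, and this cannot be told apart from the bot type.

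Mitochondria make ATP by passing electrons along the respiratory complexes I to IV, of which I, III and IV pump protons across the inner membrane, and by letting the protons return through ATP synthase, complex V. Most subunits of these complexes are encoded in the nucleus and imported, while a small core set is transcribed and translated inside the organelle. The mitochondrial DNA is transcribed as long precursor RNAs from both strands, which are then cut, largely at the transfer RNAs that lie between the other genes. In amphibian embryos the mitochondria are inherited from the egg, and in the larval skin the ionocytes are known as cells rich in mitochondria.

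The 4 neurobot libraries held 28633187 to 37985824 counts each. Sham libraries held 27265034 to 36028614 counts, and biobot libraries 29664449 to 35995421. At this depth the 95% Wilson interval of a gene's share of its library spanned at most 3.42% of the value on either side for the 10 genes, which covers counting error only. Between pools the highest share of a gene was 1.73 (*COX2*) to 2.65 (*ND5*) times its lowest. Of 23 epidermal marker genes all had counts in every group, and all 23 neuron markers had counts in neurobots, against 22 in sham neurobots and 21 in biobots. In bulk samples such as these, fewer cells of a type and less RNA per cell cannot be told apart.

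The table placed 37 genes on the mitochondrial sequence (build 10.1 of the *X. laevis* genome): the 10 genes above, 3 further protein genes, 2 ribosomal RNA genes and 22 transfer RNA genes. Positions are given on that sequence. The complex I genes lie at 4799 to 5770 (*ND1*), 5979 to 7016 (*ND2*), 12264 to 13647 (*ND4*), 13855 to 15669 (*ND5*) and 15665 to 16177 (*ND6*). The complex IV genes lie at 7397 to 8951 (*COX1*), 9109 to 9796 (*COX2*) and 10711 to 11491 (*COX3*). *ATP6* lies at 10031 to 10711 and *CYTB* at 16249 to 17388. *ND6* is the only one of the 10 on the minus strand. It shares 5 bases with *ND5*, which is read from the other strand, and the libraries did not keep strand, so that reads of this pair and any antisense RNA cannot be told apart. *ATP6* shares 10 bases with *ATP8* and 1 with *COX3*, and *ND4* shares 7 bases with *ND4L*. The small complex I gene *ND4L* had 0 counts in all 12 libraries. With 3 counts of the total taken as the limit of a count of 0, counting error alone allows a share of up to 1.1e-05% in the shallowest library and 7.9e-06% in the deepest. Whether reads of *ND4L* were lost or given to another gene in the counting was not tested. The 0 is therefore not read as absence of its RNA. *ATP8* had 78 to 237 counts and *ND3* 3676 to 12936 counts per library.

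The first question was how abundant these transcripts are, and whether each bot type spends the same share of its RNA on them. The 10 genes together took 2.75% of all counts in NB1, 4.88% in NB2, 2.96% in NB3 and 3.19% in NB4. They took 3.02%, 4.14%, 3.66% and 4.10% in NN1 to NN4, and 3.57%, 4.16%, 3.73% and 3.91% in XB1 to XB4. NB2 was thus the highest of the 12 pools, whereas NB1, NB3 and NB4 lay below every biobot pool, and the 3 groups overlapped. Within each bot type the pool numbered 2 had the highest share of the library, then 4, 3 and 1. Neurobots averaged 3.45% ± 0.973, sham neurobots 3.73% ± 0.522 and biobots 3.84% ± 0.255 (SD, n = 4 each). The log2 ratio of the means was -0.16 for neurobots over biobots, -0.11 for neurobots over sham neurobots and -0.04 for sham neurobots over biobots, each smaller than the spread between pools of the same kind (pooled SD of 0.27, 0.30 and 0.16 on the log2 scale). Against biobots it was -0.37 without NB2 and -0.06 without NB1, and against sham neurobots -0.33 without NB2 and -0.02 without NB1. Between sham neurobots and biobots it ran from -0.10 without NN2 to 0.05 without NN1. No test was made of the sum.

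**Figure D1:**
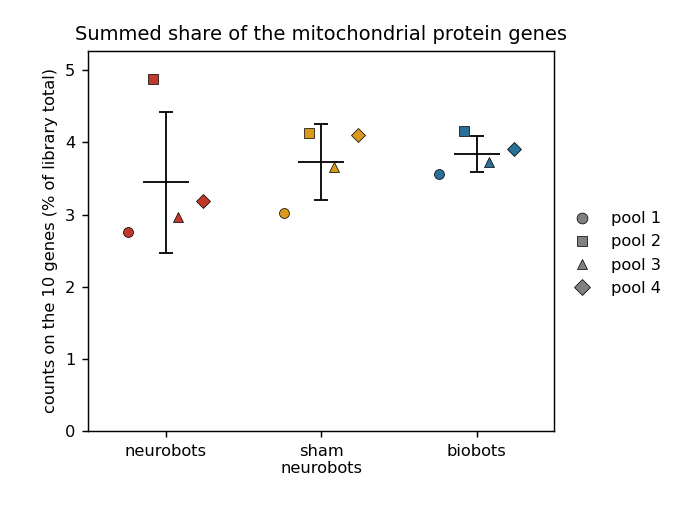
Counts on the 10 mitochondrial protein genes as percent of the library total (linear axis from 0) in the 4 pools of neurobots, sham neurobots and biobots. Symbols mark the pool number, horizontal bars the mean and whiskers the SD. The neurobot pool NB2 stands at 4.88%, and the other 3 neurobot pools at 2.75% to 3.19%.

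*COX1*, *COX2* and *COX3*, which encode the core of cytochrome c oxidase, made up 77.0% to 83.9% of the counts on the 10 genes. Levels are compared between genes per length, in FPKM, fragments scaled to gene length and a library size. The library size behind the deposited FPKM is not the count total. It was 31031816 against a total of 36277184 in NB1, and 33301448 against 27955917 in NN1. FPKM and share of the library can therefore order the pools differently. Levels of *COX1*, which carries the site where oxygen is reduced, are given first. It had the highest FPKM of the 10 genes in all 12 pools, at 10583 to 22271 in neurobots, 8896 to 17026 in sham neurobots and 15683 to 16176 in biobots. Among all genes of the table it was in position 1 or 2 in every pool. *COX3* and *COX2*, which takes electrons from cytochrome c, came next in every pool. Their FPKM values overlapped across pools, at 3560 to 8663 for *COX3* and 2810 to 6385 for *COX2*, and *COX2* was above *COX3* only in NB1. *CYTB*, the core subunit of complex III that handles ubiquinol, stood in position 4 in every pool at 1112 to 2419 FPKM.

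The remaining 6 genes had lower levels per length. *ND2*, a proton-pumping subunit of complex I, averaged 1122 FPKM ± 251 over the 12 pools (SD, n = 12), and *ATP6*, which forms the proton path of ATP synthase, averaged 933 FPKM. *ND5* averaged 763 FPKM and *ND4* 622 FPKM, both also proton-pumping subunits of complex I. The ranges of these 4 genes overlapped and they changed places between pools. *ND6* was in position 9 and *ND1* in position 10 in all 12 pools, *ND6* with 334 and *ND1* with 235 FPKM on average. The mean FPKM of *COX1* was 60.8 times that of *ND1*, and both lie on the same strand. These are levels in libraries selected for polyadenylated RNA and made without strand. The part of polyadenylation or of antisense reads in the order of the genes was not tested.

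**Figure D2:**
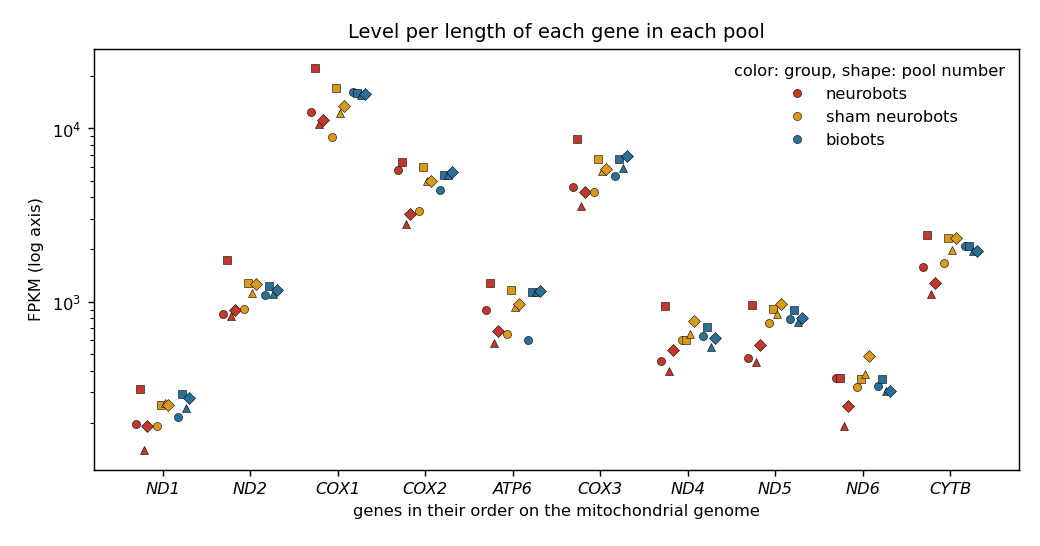
FPKM (log axis) of the 10 genes in their order along the mitochondrial genome. Color marks the bot type (neurobots, sham neurobots, biobots from left to right) and shape the pool number. *COX1* was highest and *ND1* lowest in every pool of the 3 bot types.

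The makeup of the mitochondrial messages differed somewhat between pools. *COX1* took 60.5% to 65.1% of the counts on the 10 genes in neurobots, 54.6% to 60.9% in sham neurobots and 60.1% to 64.5% in biobots. *CYTB* took 5.64%, 5.03%, 5.02% and 5.22% in NB1 to NB4, against 7.49%, 6.11%, 6.71% and 7.21% in NN1 to NN4. *ND5* took 2.67%, 3.18%, 3.22% and 3.67% in NB1 to NB4, against 5.42%, 3.77%, 4.52% and 4.75% in NN1 to NN4. For these 2 genes, alone among the 10, the neurobot pools did not overlap the sham pools. For both the neurobot pools overlapped the biobot pools, which ran from 5.48% to 6.13% for *CYTB* and from 3.51% to 3.92% for *ND5*. By share of the library, 15.1% of all genes tested were lower in every neurobot pool than in every sham pool. In that share *CYTB* overlapped the sham pools, and in FPKM both genes did. Shares of the counts on the 10 genes depend on each other, since they add up to the whole, and were not tested.

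Each gene was then followed as its share of the library. *ND5* took 0.0735%, 0.155%, 0.0953% and 0.117% in NB1 to NB4. In NN1 to NN4 it took 0.164%, 0.156%, 0.166% and 0.195%, and in XB1 to XB4 0.132%, 0.163%, 0.131% and 0.140%. Every neurobot pool was thus below every sham pool in this share, with NB2 just under NN2, and NB2 lay within the range of the biobots. In FPKM, which rests on another library size, the 2 groups overlapped for *ND5*, at 448 to 958 in neurobots and 757 to 963 in sham neurobots. *ND6*, the complex I subunit encoded on the other strand, took 0.0159%, 0.0166%, 0.0115% and 0.0147% in NB1 to NB4, against 0.0197%, 0.0174%, 0.0211% and 0.0277% in NN1 to NN4. Again no neurobot pool reached a sham pool, while the biobots, at 0.0148% to 0.0185%, overlapped both. For *ND6*, too, neurobots and sham neurobots overlapped in FPKM, at 192 to 363 and 322 to 484.

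*CYTB* took 0.155%, 0.246%, 0.148% and 0.167% of the library in NB1 to NB4, against 0.226%, 0.253%, 0.246% and 0.296% in NN1 to NN4 and 0.219%, 0.24003%, 0.211% and 0.214% in XB1 to XB4. NB1, NB3 and NB4 were below all 8 other pools for this gene, and NB2 was above all biobots. *COX1* took 1.67%, 3.09%, 1.93% and 2.00% in NB1 to NB4, against 1.65%, 2.52%, 2.06% and 2.32% in NN1 to NN4 and 2.30%, 2.52%, 2.31% and 2.35% in XB1 to XB4. Its highest over lowest share was 1.85 in neurobots and 1.53 in sham neurobots, against 1.09 in biobots. *ATP6* took 0.0523%, 0.0781%, 0.0458% and 0.0525% in NB1 to NB4, 0.0530% to 0.0760% in sham neurobots, and 0.0376%, 0.0775%, 0.0737% and 0.0751% in XB1 to XB4. XB1, the biobot pool of the first submission, was the lowest of the 12 pools for *ATP6* only.

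In the other 5 genes, too, NB2 was the highest neurobot pool, as it was for all 10, and it was the highest of the 12 pools for 5 of the 10. *COX3* ran from 0.305% to 0.603% in neurobots, 0.400% to 0.509% in sham neurobots and 0.381% to 0.523% in biobots. *COX2* ran from 0.226% to 0.392% in neurobots, 0.274% to 0.390% in sham neurobots and 0.278% to 0.370% in biobots. *ND2* ran from 0.0755% to 0.161% in neurobots, 0.112% to 0.145% in sham neurobots and 0.103% to 0.128% in biobots. For *COX3*, *COX2* and *ND2* the neurobot range enclosed those of both other bot types. *ND4* ran from 0.0537% to 0.117% in neurobots, 0.0794% to 0.120% in sham neurobots and 0.0714% to 0.0989% in biobots, while *ND1* ran from 0.0157% to 0.0271% in neurobots, 0.0222% to 0.0273% in sham neurobots and 0.0191% to 0.0286% in biobots.

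**Figure D3:**
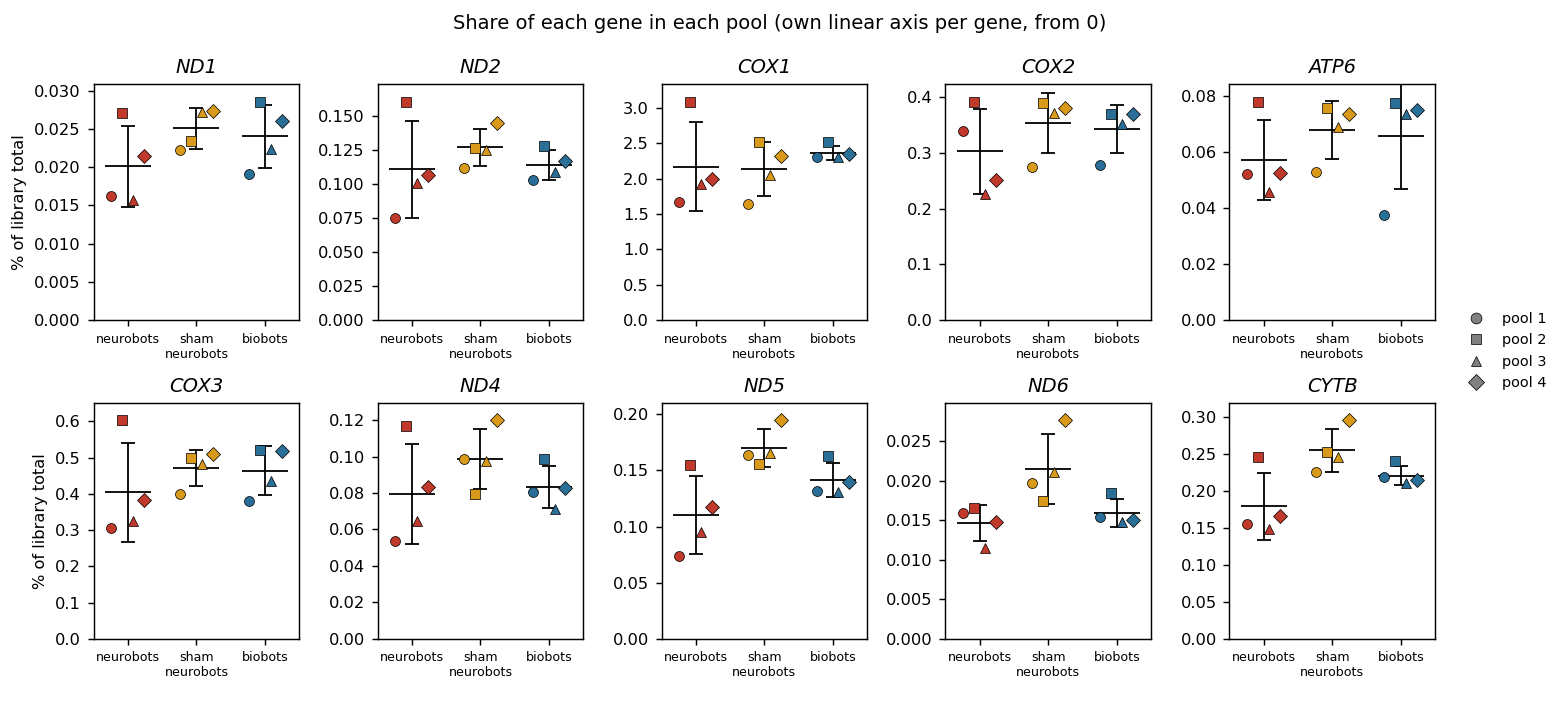
Share of each of the 10 genes in the library total, in percent, with a linear axis from 0 for each gene. Symbols mark the pool number, horizontal bars the mean and whiskers the SD of the 4 pools of neurobots, sham neurobots and biobots. NB2 (red square) was the highest neurobot pool for all 10 genes. For *ND5* and *ND6*, alone among the 10, the neurobots did not overlap the sham neurobots in this share. Of all genes tested 15.1% had a lower share in every neurobot pool than in every sham pool.

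Neurobots were compared with biobots to ask how a bot with a neural implant differs from one with no implant. This contrast does not separate neural tissue from the implant itself. None of the 10 genes was called in this comparison by edgeR's quasi-likelihood test, where a gene is called at a Benjamini-Hochberg adjusted p under 0.05 over all genes tested. Of the 24082 genes tested, 31.8% were called, 12.3% lower and 19.5% higher in neurobots. All 10 fold changes were negative, with a median of -0.23 on the log2 scale against 0.03 over all genes tested. The values ran from -0.43 for *ND5* (SE 0.26, 95% interval -0.997 to 0.13, adjusted p = 0.223 by edgeR) to -0.11 for *ND2* (SE 0.26, 95% interval -0.68 to 0.46, adjusted p = 0.773 by edgeR). *CYTB* was at -0.36 (95% interval -0.92 to 0.20) and *COX1* at -0.19 (95% interval -0.81 to 0.43). At an unadjusted p under 0.05 edgeR also found 0 of the 10, and DESeq2 and limma called 0. In percent of the library 0 of the 10 genes had neurobots below all biobots, against 11.3% of all genes tested.

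Which pools entered the fit changed these calls. Without NB2, *ND5* was called lower in neurobots (log2 fold change -0.72, adjusted p = 0.0232 by edgeR), where 9.59% of all genes tested were called lower. Without NB1 and XB1, 0 of the 10 genes were called. Without NB1, XB1 and NB2 together, all 10 genes were called lower in neurobots, with log2 fold changes from -0.90 for *ATP6* to -0.47 for *ND2*, a median of -0.74 and adjusted p from 6.26e-05 to 0.0234 by edgeR. In that fit 25.5% of the 26111 genes tested were called lower. It was added after the data were seen, NB2 was left out because its level of these genes is high, and only NB3 and NB4 remained against 3 biobot pools. NB2 was also known to be high when the genes were chosen. Both fits without NB2 thus measure how much the calls depend on the pools and are not tests of the groups.

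Neurobots were compared with sham neurobots to set an implant of neural precursors against an implant of other cells. By edgeR 0 of the 10 genes were called, where 32.9% of the 24542 genes tested were called, 13.2% lower and 19.6% higher in neurobots. Of the 10 fold changes 9 were negative, with a median of -0.19 against 0.01 over all genes tested, and *COX1* was at 0.09 (95% interval -0.68 to 0.86). *ND5* was at -0.55 (SE 0.28, 95% interval -1.16 to 0.07, adjusted p = 0.150 by edgeR), *ND6* at -0.44 (95% interval -0.97 to 0.09, adjusted p = 0.177 by edgeR) and *CYTB* at -0.42 (95% interval -1.05 to 0.21, adjusted p = 0.274 by edgeR). At an unadjusted p under 0.05 edgeR found 0 and DESeq2 1 of the 10 genes, and DESeq2 and limma called 0. The share of the library was lower in every neurobot pool than in every sham pool for *ND5* and *ND6*, 2 of 10 genes, against 15.1% of all genes tested.

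With library size alone as the scale, *ND6* was called lower in neurobots than in sham neurobots (log2 fold change -0.55, adjusted p = 0.0485 by edgeR). In that fit 2881 of the 24542 genes tested were called lower, and the median over all genes was -0.05. Without NB2, *ND5* was called lower (log2 fold change -0.83, adjusted p = 0.0267 by edgeR), where 9.54% of genes tested were called lower. Without both NB1 and NB2, in the fit added after the data were seen, *ND5*, *ND6* and *CYTB* were called lower, at -0.82, -0.85 and -0.84 on the log2 scale, with adjusted p of 0.0167, 0.0121 and 0.0213 by edgeR, and 17.7% of genes tested were called lower. The sign of *COX1* then turned to -0.29 (adjusted p = 0.517 by edgeR). NB2 was known to be high in these genes, so neither fit without it is a test of the groups.

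Sham neurobots were compared with biobots to ask what the implant itself changes. By edgeR 0 of the 10 genes were called, at an unadjusted p under 0.05 there were 0, and DESeq2 and limma called 0. Of the 22764 genes tested 5.74% were called, 2.19% lower and 3.55% higher in sham neurobots. Fold changes were positive for 5 genes and negative for 5, from -0.28 for *COX1* (95% interval -0.77 to 0.20) to 0.27 for *ND6* (95% interval -0.05 to 0.60, adjusted p = 0.275 by edgeR). With library size alone 9 of the 10 were positive, under a scale that moved the median of all genes to 0.16. In percent of the library 0 of the 10 genes had sham neurobots below all biobots, against 3.15% of genes tested.

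**Figure D4:**
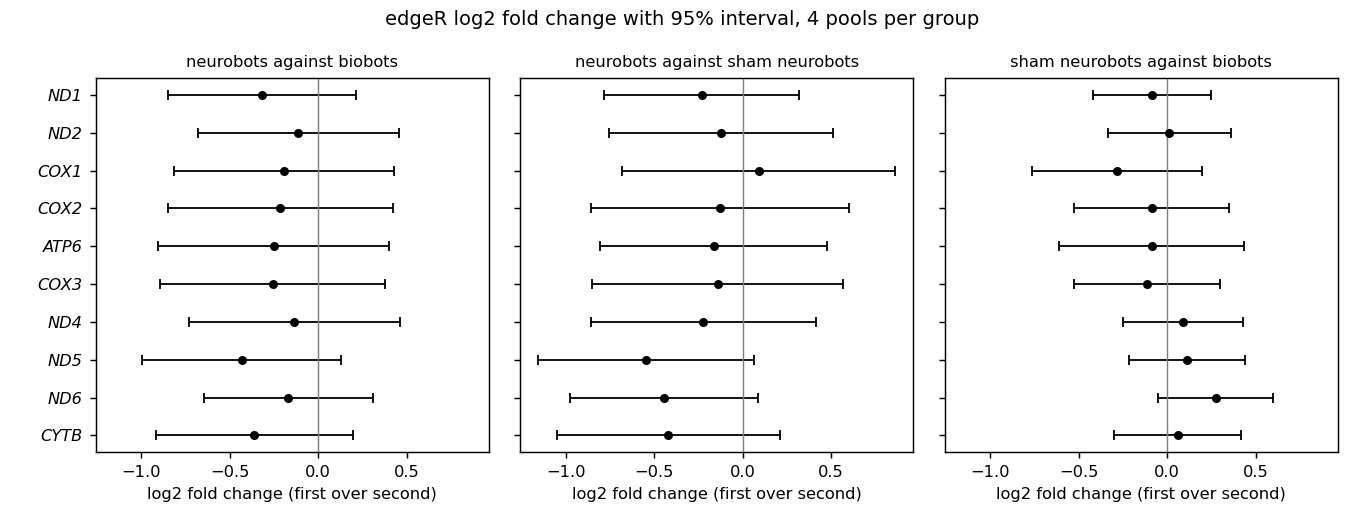
Log2 fold change (x axis, first group over second) of the 10 genes by edgeR, with the 95% interval, for neurobots against biobots, neurobots against sham neurobots and sham neurobots against biobots, with 4 pools per group. Every interval includes 0.

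The 10 genes mostly deviated in the same direction within a pool. CPM here is the count scaled to a common library size with TMM factors over all libraries. On its log2 scale NB2, NN2 and XB2 had 10 of the 10 genes above the gene's own mean over the pools, NB3 and NB4 had 0, NN1 had 1 and NB1 had 2. XB1 had 5, with a range from -0.58 to 0.21 around the means. The sum of the 10 genes was followed most closely by *COX1*, its largest part, with a root mean square difference of 0.08, and least closely by *ND6*, with 0.31. Outside the mitochondrial genome the 5 genes with the most similar pattern over the 12 pools, among 10736 genes with a symbol and at least 10 CPM on average, were *bloc1s6.S* (a subunit of a complex for lysosome-related organelles), *cops2.L* (a COP9 signalosome subunit), *commd4.S*, *npc2.S* (a lysosomal cholesterol carrier) and *gosr1.L* (a Golgi SNARE). Their root mean square differences from the sum ran from 0.10 to 0.13 on the log2 scale. *cops2.L*, for example, had 48.6, 72.6, 40.5 and 42.9 CPM in NB1 to NB4, 34.9, 72.2, 50.02 and 52.3 CPM in NN1 to NN4 and 54.5, 53.6, 63.2 and 55.8 CPM in XB1 to XB4. These points share their libraries and their scaling, and no p-value is given for the likeness.

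The mitochondrial proteins work in complexes with subunits made from nuclear genes, and these were read from the same fits. The frog has many of them as homeologs, marked .L and .S, which can share reads. Of 121 nuclear subunits of complexes I to V tested, 20 were called lower and 2 higher in neurobots than in biobots, which is 16.5% lower, with a median log2 fold change of -0.47, beside 12.3% lower and a median of 0.03 over all genes tested. The lower ones included *ndufs1.L* of complex I (log2 fold change -0.93), *sdha.L* of complex II (-1.17), *cyc1.S* of complex III (-1.20) and *atp5f1a.L*, the alpha subunit of ATP synthase (-1.09), with adjusted p of 0.00879, 0.00597, 0.00360 and 0.0107 by edgeR. *sdha.L* had 136, 70.7, 61.2 and 63.7 CPM in NB1 to NB4, against 185, 177, 174 and 219 CPM in XB1 to XB4, and NB1 lay nearest the biobots. Both genes called higher were homeologs of *cox4i2*, an isoform of complex IV subunit 4 known in mammals for its induction by low oxygen. *cox4i2.S* had 32.7, 24.8, 16.4 and 16.3 CPM in NB1 to NB4, against 5.29 to 6.31 CPM in XB1 to XB4 (log2 fold change 1.95, adjusted p = 0.000222 by edgeR). *cox4i2.L* was near the floor outside neurobots. It had 0.970, 6.56, 2.62 and 3.50 CPM in NB1 to NB4, against 0.142 to 0.298 CPM in biobots and 0.174 to 0.576 CPM in sham neurobots. It passed the filter on low counts only through its level in neurobots, so its call is not taken as support.

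The number of nuclear subunits called depended on the pools. It was 87 without NB1, 99 without NB1 and XB1 and 119 without NB1, XB1 and NB2, and it ranged from 10 to 13 without NB2, NB3, NB4, XB2, XB3 or XB4 in turn. It was 27 without XB1. The number of all genes called moved as well, with 11009 of 25325 without NB1, 11485 of 25107 without NB1 and XB1 and 14991 of 26111 without NB1, XB1 and NB2, against 7657 of 24082 with all pools. Against sham neurobots 3 nuclear subunits were called lower in neurobots (*sdha.L*, *sdhd.S* and *cyc1.S*) and 2 higher (*cox4i2.L* and *cox4i2.S*) of 121, which is 2.48% lower beside 13.2% of all genes tested. Here, too, *cox4i2.L* was tested only through its level in neurobots. Without NB1 30 were called, where 11067 of 25705 genes were called, and without NB2, NB3, NB4 or NN3 in turn 2. Between sham neurobots and biobots 0 of 120 were called by edgeR and 7 by DESeq2, and 12 and 18 were called by edgeR without XB1 and without NN2. Of all genes tested, 1306 of 22764 were called by edgeR and 3164 of 27321 by DESeq2. Without XB1 edgeR called 2884 of 23339 genes, and without NN2 2828 of 23251.

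Counts on the 10 genes were set against those on nuclear subunits of complexes I, III, IV and V, the complexes to which both genomes contribute. The nuclear subunits took 1.22%, 0.918%, 0.766% and 0.794% of the library in NB1 to NB4, 0.959%, 1.39%, 1.23% and 1.17% in NN1 to NN4, and 1.04%, 1.42%, 1.54% and 1.52% in XB1 to XB4. The ratio of mitochondrially encoded to nuclear counts was 2.26, 5.32, 3.87 and 4.02 in NB1 to NB4. It was 3.15, 2.98, 2.99 and 3.51 in NN1 to NN4, and 3.42, 2.93, 2.42 and 2.57 in XB1 to XB4. NB2, NB3 and NB4 had a higher ratio than every sham and biobot pool, and NB1 had the lowest of the 12. Ratios averaged 3.87 ± 1.25 for neurobots, 3.16 ± 0.248 for sham neurobots and 2.83 ± 0.447 for biobots (SD, n = 4 each). The log2 ratio of means was 0.45 for neurobots over biobots, against a pooled SD of 0.40, and 0.29 for neurobots over sham neurobots, against 0.37. Over biobots it was 0.26 without NB2 and 0.64 without NB1, and over sham neurobots 0.10 without NB2 and 0.48 without NB1. No test was made of this ratio.

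**Figure D5:**
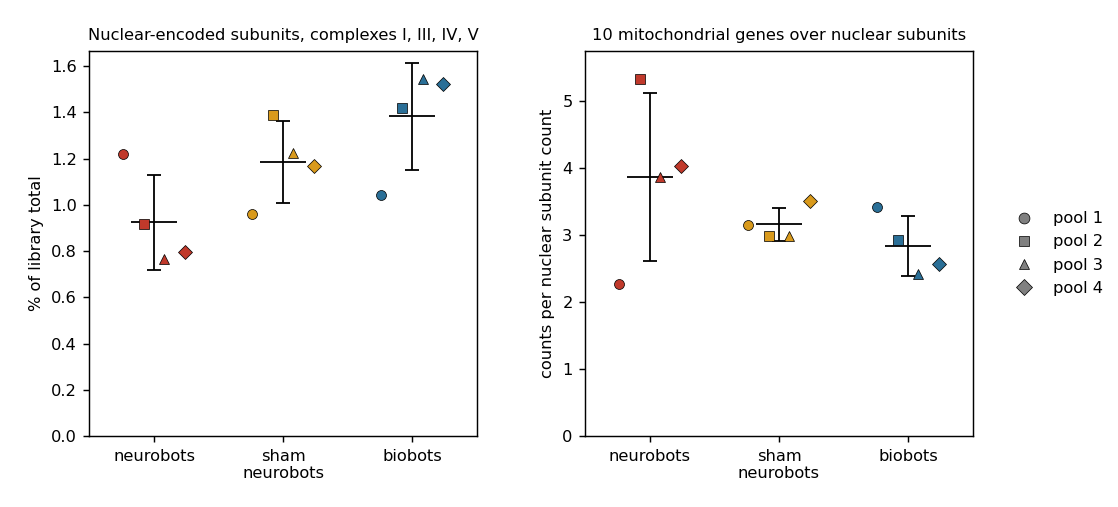
Left, counts on nuclear-encoded subunits of complexes I, III, IV and V as percent of the library total. Right, counts on the 10 mitochondrial genes per count on those nuclear subunits. Symbols mark the pool number, horizontal bars the mean and whiskers the SD of 4 pools each of neurobots, sham neurobots and biobots (linear axes from 0), and NB1 and NB2 are at the lowest and highest ratio, 2.26 and 5.32.

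Further lists are read beside the share of all genes tested, 12.3% lower and 19.5% higher against biobots and 13.2% lower and 19.6% higher against sham neurobots. Genes that act on mitochondrial transcripts were examined as a list of 23. In neurobots against biobots 2 were called lower (8.70%) and 0 higher: *lrpprc.L*, which stabilizes mitochondrial messenger RNA in mammals, and *fastkd5.L*, from a family of mitochondrial RNA-binding proteins (log2 fold change -0.51, adjusted p = 0.0444 by edgeR). *lrpprc.L* had 133, 89.8, 105 and 101 CPM in NB1 to NB4, against 221, 205, 213 and 213 CPM in XB1 to XB4 (log2 fold change -0.97, adjusted p = 0.00135 by edgeR). It was also called lower than in sham neurobots (log2 fold change -0.51, adjusted p = 0.0452 by edgeR), together with *fastkd1.L* and *tefm.L*, the mitochondrial transcription elongation factor (log2 fold change -0.64, adjusted p = 0.0244 by edgeR). The mitochondrial RNA polymerase *polrmt.L* was at -0.46 against biobots (adjusted p = 0.0792 by edgeR) and the packaging and transcription factor *tfam.L* at 0.30 (adjusted p = 0.237 by edgeR), and neither passed the threshold.

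Among 12 genes for the replication and upkeep of mitochondrial DNA, *mgme1.L* and *polg2.L* were called higher and 1 gene lower in neurobots against each of the other bot types. *primpol.L*, a primase, was the lower one, at 3.62, 3.39, 5.30 and 3.89 CPM in NB1 to NB4, against 6.88 to 8.59 CPM in NN1 to NN4 and 6.52 to 8.45 CPM in XB1 to XB4. The exonuclease gene *mgme1.L* had a log2 fold change of 1.60 against biobots (adjusted p = 0.00199 by edgeR), and *polg2.L*, the accessory subunit of the mitochondrial DNA polymerase, 1.35 against sham neurobots (adjusted p = 0.00206 by edgeR). Of 94 mitochondrial ribosomal proteins 3 were called lower and 0 higher against biobots, and 1 lower (*mrpl42.L*) and 1 higher (*mrpl52.S*) against sham neurobots, which is 3.19% and 1.06% lower. Of 44 assembly factors of the respiratory complexes 10 were called lower and 0 higher against biobots and 5 lower and 0 higher against sham neurobots, which is 22.7% and 11.4% lower. *cox10.L*, needed for the heme of complex IV, was at -0.80 against biobots (adjusted p = 0.00399 by edgeR) and *uqcc1.L*, an assembly factor of complex III, at -0.98 against sham neurobots (adjusted p = 0.00737 by edgeR). Of 22 genes of import, channels and membrane shape 11 were called lower and 1 higher against biobots, and 2 lower and 0 higher against sham neurobots, a share of 9.09%. The outer membrane channel *vdac3.L* was among the lower ones in both, while *vdac1.L* was the one called higher against biobots (log2 fold change 0.58, adjusted p = 0.0400 by edgeR).

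Regulators of mitochondrial biogenesis are the transcription factors and coactivators that set the expression of many of the genes above. Of 12 such genes 5 were called lower and 0 higher against biobots, and 6 lower and 0 higher against sham neurobots. The share called lower against biobots was 41.7%. *esrra.S*, an orphan nuclear receptor that drives genes of oxidative metabolism in mammals, had 21.4, 21.2, 22.7 and 21.1 CPM in NB1 to NB4, against 43.4, 50.7, 44.1 and 51.7 CPM in NN1 to NN4 and 38.1, 49.7, 58.2 and 57.1 CPM in XB1 to XB4. The neurobot pools were close to each other and overlapped neither other group. Its log2 fold change was -1.21 against biobots (adjusted p = 0.000367 by edgeR) and -1.13 against sham neurobots (adjusted p = 0.000234 by edgeR). The next genes are named after their values were seen. *esrra.L* had 103, 30.5, 46.4 and 49.8 CPM in NB1 to NB4, against 128 to 156 CPM in sham neurobots and 157 to 180 CPM in biobots, with NB1 nearest the other bot types (log2 fold change -1.56 against biobots and -1.27 against sham neurobots, adjusted p = 0.00366 and 0.0137 by edgeR). The coactivator gene *ppargc1b.S* had 0.970, 1.52, 3.87 and 5.80 CPM in NB1 to NB4, against 7.20 to 12.8 CPM in sham neurobots and 9.46 to 13.5 CPM in biobots (log2 fold change -1.86 against biobots and -1.85 against sham neurobots, adjusted p = 0.0128 and 0.0170 by edgeR). Its related coactivator *ppargc1a.L* had 2.17, 1.12, 2.26 and 2.44 CPM in NB1 to NB4, against 5.21 to 12.8 CPM in sham neurobots and 5.73 to 11.9 CPM in biobots, and its log2 fold change was -2.16 against biobots and -2.28 against sham neurobots (adjusted p = 0.000533 and 0.000769 by edgeR).

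Of 16 tested genes of mitochondrial stress and the integrated stress response, 5 were called higher and 5 lower (31.2% each) against biobots, and 4 higher and 0 lower against sham neurobots. Their median log2 fold change was -0.37 against biobots and -0.09 against sham neurobots. *asns.L*, asparagine synthetase, had 15.1, 64.2, 34.8 and 41.5 CPM in NB1 to NB4, against 0.244 to 1.78 CPM in NN1 to NN4 and 0.707 to 5.11 CPM in XB1 to XB4 (log2 fold change 3.73 against biobots and 5.81 against sham neurobots, adjusted p = 0.000773 and 0.000201 by edgeR). *gdf15.L*, *ddit3.L* and *atf4.S*, named after their values were seen, had log2 fold changes of 4.40, 1.31 and 0.79 against biobots (adjusted p = 0.000924, 0.00126 and 0.00538 by edgeR) and of 4.18, 0.73 and 1.05 against sham neurobots (adjusted p = 0.00163, 0.0280 and 0.00508 by edgeR). *gdf15.L* was near the floor, at 0.421, 3.71, 2.11 and 2.90 CPM in NB1 to NB4. It had 0.0349 to 0.181 CPM in sham neurobots and 0.0338 to 0.142 CPM in biobots. *gdf15.L* passed the filter on low counts only through its level in neurobots. Its call and fold change are therefore not taken as support, and both counts of stress genes called higher include it. The mitochondrial chaperonin gene *hspd1.S* was lower than in biobots (log2 fold change -0.92, adjusted p = 0.00843 by edgeR) and was at -0.46 against sham neurobots (adjusted p = 0.102 by edgeR). Between sham neurobots and biobots edgeR called 2.19% of all genes tested lower and 3.55% higher. Lower were 2 of 22 genes of import, channels and membrane shape (9.09%) and 1 of 94 ribosomal proteins (1.06%). So were 1 of 23 genes of transcription and RNA processing (4.35%) and 1 of 44 assembly factors (2.27%). Of 15 stress genes tested 2 were higher and 0 lower.

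Markers of other cell types moved with the bot types and between the neurobot pools. Here CPM is per library total, without TMM factors. Summed ionocyte markers were at 33.5 to 608 CPM in neurobots, with 608 in NB1, against 820 to 1334 in sham neurobots and 1041 to 1364 in biobots. Of 8 ionocyte genes 7 were called lower and 0 higher in neurobots against biobots and 4 lower and 0 higher against sham neurobots, and all 8 had counts in each group. Neuron markers summed to 534 to 919 CPM in neurobots, against 139 to 165 in sham neurobots and 152 to 163 in biobots, with 21 of 22 tested genes higher and 1 (*syt1.L*) lower in neurobots in either comparison. Between sham neurobots and biobots only 8 of the 23 neuron markers passed the filter on low counts. Many thus entered the other fits only through their level in neurobots, and the count called higher is not taken as support. Multiciliated cell markers were at 332 to 509 CPM in neurobots, against 539 to 728 in sham neurobots and 577 to 638 in biobots, with 4 genes lower and 1 higher of 12 against each. Epidermal markers summed to 73036, 54382, 43113 and 45891 CPM in NB1 to NB4, against 57982 to 63485 in sham neurobots and 62060 to 78665 in biobots, so that NB2, NB3 and NB4 lay below every other pool and NB1 did not. Of 20 epidermal genes tested 3 were higher and 2 lower against biobots, and 3 higher and 3 lower against sham neurobots. Of 11 striated muscle genes, a tissue these bots should lack, 2 were tested against biobots and 1 against sham neurobots, and 0 were called. The part of these cell types in the levels of the mitochondrial genes was not tested.

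*ND3*, a complex I gene of the mitochondrial genome outside the 10, had 0.0235%, 0.0216%, 0.0128% and 0.0153% of the library in NB1 to NB4, against 0.0227% to 0.0309% in sham neurobots and 0.0195% to 0.0359% in biobots. Its log2 fold change of -0.73 against biobots (adjusted p = 0.0912 by edgeR) was larger in size than that of any of the 10. *ATP8*, also outside the 10, had positive values, 0.23 against biobots and 0.12 against sham neurobots (adjusted p = 0.649 and 0.793 by edgeR). *ND3* was called lower against biobots without NB1 (log2 fold change -0.99, adjusted p = 0.0170 by edgeR) and without NB1 and XB1 (log2 fold change -1.14, adjusted p = 0.00781 by edgeR). Without NB1, XB1 and NB2, in the fit added after the data were seen, it was called against both (adjusted p = 3.17e-06 against biobots and 0.00384 against sham neurobots by edgeR). The 2 mitochondrial ribosomal RNA genes took 4.14%, 1.92%, 2.60% and 2.78% of the counts on the mitochondrial genome in NB1 to NB4, against 2.74% to 3.47% in sham neurobots and 1.87% to 2.86% in biobots. All transfer RNA genes together had 112 to 325 counts per library, in libraries selected for polyadenylated RNA.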

How the data were processed

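Counts per gene and FPKM values were used as deposited. The authors removed low-quality reads, aligned the rest with HISAT2 2.0.5 to build 10.1, and counted reads with featureCounts 1.5.0-p3. They made FPKM from these counts and gene length. The libraries were polyA-selected and not directional. Groups came from the sample labels.

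From the counts, each pair of groups was fitted over all genes with edgeR 4.0.16 (R 4.3.3): TMM factors, filterByExpr (minimum count 10, minimum total 15), the robust quasi-likelihood test and Benjamini-Hochberg adjustment, with a threshold of 0.05. DESeq2 1.42.0 and limma 3.58.1 on log2(FPKM + 1), over genes with a mean FPKM of at least 0.1, were alternatives, as were other scalings, no filter, a replicate block and leaving out pools. The procedure was checked on simulated counts, with larger fold changes than those of the 10 genes and no shift shared by the genes of a pool. That check does not bear on small changes or on such a shift. Shares are percent of the library total, and no test was made of sums or ratios.

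The 10 genes and the gene lists were chosen with earlier results of these data known. Named genes are the 10, the 5 genes most alike in log2 CPM (mean CPM of at least 10, pseudocount 0.5), and, per nuclear list, comparison and direction, the called gene with the lowest adjusted p. Of the others some are stated to be chosen after their values were seen. The rest, such as *fastkd5.L*, *polrmt.L* and *tfam.L*, are named outside this rule.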

Additional observations from a re-analysis of the deposited data

Results flagged for a closer look

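In 7 of 78 groups of 4 pools examined, 1 pool lay further from the rest than Dixon's 95% critical value allows, and chance alone marks about 1 group in 20. As a share of the library, *COX2* was low in NN1 at 0.274% among the sham neurobots, *ATP6* was low in XB1 at 0.0376% among the biobots, and *ND6* was high in XB2 at 0.0185% among the biobots. As a share of the counts on the 10 genes, NB1 stood apart from the other neurobots with 2.74% for *ND2* and 12.3% for *COX2*, and XB1 from the other biobots with 1.05% for *ATP6*. Ribosomal RNA made up 3.47% of the counts on the mitochondrial genome in NN3, the highest sham pool. NB1 and XB1 are the pools of the first submission, and the part of the submission in these values was not tested. The high summed share of NB2 did not pass the same criterion, with a gap of 0.794 of the range.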

How the results depend on the processing

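No alternative called any of the 10 genes higher in any comparison. In neurobots against biobots the count of genes called was 0, and 0 to 1 with each pool left out in turn (1 without NB2). It was 10 without NB1, XB1 and NB2, a choice made after seeing the data that removes NB2 for its high level. In neurobots against sham neurobots it was 0, 1 with library size alone, 0 to 1 with each pool left out (1 without NB2), and 3 without NB1 and NB2. The fits without NB2 are not tests of the groups, here or against biobots. Between sham neurobots and biobots it was 0 throughout.

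Over all genes, the deviations of same-numbered pools had r from -0.30 to 0.04 for neurobots against biobots, -0.40 to 0.49 for neurobots against sham neurobots and -0.15 to 0.21 for sham neurobots against biobots. Pools of different number had r from -0.30 to 0.32, -0.60 to 0.61 and -0.30 to 0.37 in these comparisons. Not every same-numbered pair was over 0.1. The only batch stated to be shared by number is the first submission of NB1 and XB1. Whether pools of equal number were otherwise made together is not stated, so the numbers were not taken to pair the pools. The summed share of the 10 genes nevertheless had the same order of pool numbers in all 3 bot types. In summed CPM with TMM factors sham neurobots and biobots kept this order and neurobots did not. The neurobot sums were 53348 in NB2, 32317 in NB1, 27972 in NB4 and 25220 in NB3. With a replicate block 0 of the 10 genes were called in each comparison, nuclear subunits called against biobots numbered 12 in place of 22, and *ND2* between sham neurobots and biobots was at -0.00011.

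Nuclear subunits called in neurobots against biobots numbered 22, 99 without the first submission, 119 without NB2 as well, and 10 to 87 with each pool left out. Against sham neurobots they numbered 5, 15 with library size alone, 30 without the first submission, 60 without NB2 as well, and 2 to 30 with each pool left out. Between sham neurobots and biobots they numbered 0, 7 by DESeq2, 12 without XB1, and 0 to 18 with each pool left out. All genes called there also rose, from 1306 to 3164 by DESeq2 and to 2884 without XB1. The cause of these differences was not tested.

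Fold changes that turned sign were all of genes not called. With a pool left out, log2 fold changes of neurobots over biobots ran from -0.46 to 0.013 (*ND4*) and -0.12 to 0.46 (*ATP8*), and those of neurobots over sham neurobots from -0.20 to 0.24 (*COX1*), -0.32 to 0.051 (*COX2*), -0.47 to 0.012 (*COX3*) and -0.23 to 0.24 (*ATP8*). Those of sham neurobots over biobots ran from -0.17 to 0.0033 (*ND1*), -0.053 to 0.10 (*ND2*), -0.21 to 0.047 (*COX2*), -0.27 to 0.045 (*ATP6*), -0.011 to 0.15 (*ND4*), -0.0088 to 0.15 (*CYTB*) and -0.020 to 0.36 (*ATP8*). Without the first submission and NB2, *COX1* and *ATP8* turned to -0.29 and -0.20 against sham neurobots, and *mrpl52.S* to -0.18 against biobots. In sham neurobots over biobots, library size alone gave 0.061 for *ND1*, 0.048 for *COX2*, 0.041 for *ATP6* and 0.023 for *COX3*. *ND2* was at -0.0092 by DESeq2 and with its size factors, -0.0043 without the filter, -0.022 by limma and -0.020 without XB1.

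Library size alone moved the median of all genes to 0.13 in neurobots against biobots and 0.16 in sham neurobots against biobots. In neurobots against sham neurobots it moved this median to -0.05. Depth limits these results little, since counting error is far below the spread between pools, and 4 pools per group limit them more. For the nuclear genes with the lowest adjusted p per list, and some others of these lists, 939 values kept their call and direction. Of the rest 74 lost and 30 gained a call, and 1, that of *mrpl52.S* above, turned sign. *fastkd1.L*, *fastkd5.L*, *polrmt.L*, *tfam.L* and *sdhd.S* were not counted.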
